A study of Homo sapiens with 14 samples.

Results

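In HS-SY-II cells given vehicle, the synovial sarcoma fusion protein SS18::SSX was mapped to 1970 regions that lay at an end of a protein-coding gene and carried no overlapping GLTSCR1 region. They were drawn from the 24953 fusion regions of the vehicle (DMSO) list on chromosomes 1 to 22, X and Y. A region was taken when it was up to 5000 bp wide, overlapped the 1 kb on either side of an end of 1 of 20037 protein-coding gene spans (GRCh38), and shared no base with the 18037 GLTSCR1 regions of the DMSO list. Of the 4632 fusion regions at gene ends, 1988 had no GLTSCR1, and 18 of these were wider than the limit. The remaining 1970 are 1 region at an end of 1 gene in most cases, and 213 of them (10.8%) overlapped the end windows of 2 or more genes. Their DMSO fusion values, their lack of GLTSCR1 in DMSO, their width and their position at a gene end were used to choose them, so those values are given as a description only.

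Chromatin immunoprecipitation and sequencing (ChIP-seq) was done with an antibody to GLTSCR1 and with an anti-HA antibody that detects an HA-tagged fusion protein. HS-SY-II is a synovial sarcoma line. The labels give its genotype as WT and do not say how the tagged protein was introduced. All libraries are from this 1 line, which received either DMSO or 100 nM WA-68, a PROTAC that directs BRD9 to degradation. The 4 fusion libraries were from DMSO and from 12, 24 and 48 h of WA-68, and the 5 GLTSCR1 libraries from DMSO and from 12, 24, 48 and 96 h. The reads of 5 inputs were not analysed here. Every group held a single library (n = 1), which gives no replicate error, and conditions were compared without a test or a p-value. Intervals in brackets are exact Clopper-Pearson 95% intervals of a share, or 95% intervals of a difference between shares, and they cover counting error only. No time is given for the DMSO libraries, so hours in culture and hours of WA-68 cannot be told apart. Peak lists hold no RNA or protein levels, so neither the loss of BRD9 nor the labelled cell type was checked.

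SS18::SSX joins most of SS18, a subunit of BAF chromatin remodelling complexes, to the end of an SSX protein, and through SS18 it becomes part of those complexes. GBAF is the form of BAF that holds BRD9 together with GLTSCR1 or its paralogue, and SS18 is a subunit of GBAF as well as of canonical BAF. In synovial sarcoma the fusion is known for occupying CpG islands and the promoters of developmental genes, many of them under Polycomb repression, where the SSX part reads the histone mark that Polycomb deposits. A fusion region without a GLTSCR1 region is therefore of interest as a place where the fusion was called and this GBAF subunit was not.

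The promoters of 8 genes show the kind of DNA that these regions covered. Each is the RefSeq window of 300 bases (250 before and 50 after a gene start, GRCh38.p14), printed 5′ to 3′ on the strand of the gene, with each GGGCGG and its reverse complement CCGCCC, the box of SP and KLF factors, in capitals. The TP73 and VAT1L windows are shown because they lay under strong regions that were called again at every later time, and that of ADPRS because it lay under a strong region that was called at no later time. HOXA6, FOXL3 and PRDM13 were chosen after their values were seen, as strong regions of developmental transcription factor genes. FGFR3 and LOC124900173 were taken for their many and few CG dinucleotides, 51 and 1, from the 236 windows that lay wholly inside a region. Not every one of the 236 was ranked for this choice, so windows with more or fewer CG may exist among them.
TP73, chr1:3652266-3652565, plus strand: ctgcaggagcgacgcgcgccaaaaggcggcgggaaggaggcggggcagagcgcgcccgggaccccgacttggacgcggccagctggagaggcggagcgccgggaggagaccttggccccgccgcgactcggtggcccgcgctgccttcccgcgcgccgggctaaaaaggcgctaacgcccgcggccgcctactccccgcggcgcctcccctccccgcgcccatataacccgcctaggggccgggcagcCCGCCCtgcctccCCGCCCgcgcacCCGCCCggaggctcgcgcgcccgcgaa
VAT1L, chr16:77788314-77788613, plus strand: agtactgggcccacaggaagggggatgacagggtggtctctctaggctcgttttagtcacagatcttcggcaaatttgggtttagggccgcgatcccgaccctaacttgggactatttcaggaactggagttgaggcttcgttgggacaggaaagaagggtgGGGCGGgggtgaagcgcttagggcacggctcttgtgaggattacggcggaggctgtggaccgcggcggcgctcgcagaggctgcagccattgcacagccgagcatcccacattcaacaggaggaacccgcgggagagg
ADPRS, chr1:36088642-36088941, plus strand: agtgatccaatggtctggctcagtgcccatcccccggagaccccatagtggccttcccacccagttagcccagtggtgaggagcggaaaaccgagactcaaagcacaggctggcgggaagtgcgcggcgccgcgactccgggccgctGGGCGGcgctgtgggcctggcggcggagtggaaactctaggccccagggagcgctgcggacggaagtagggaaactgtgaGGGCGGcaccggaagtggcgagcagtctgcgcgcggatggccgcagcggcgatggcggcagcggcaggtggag
HOXA6, chr7:27147725-27148024, minus strand: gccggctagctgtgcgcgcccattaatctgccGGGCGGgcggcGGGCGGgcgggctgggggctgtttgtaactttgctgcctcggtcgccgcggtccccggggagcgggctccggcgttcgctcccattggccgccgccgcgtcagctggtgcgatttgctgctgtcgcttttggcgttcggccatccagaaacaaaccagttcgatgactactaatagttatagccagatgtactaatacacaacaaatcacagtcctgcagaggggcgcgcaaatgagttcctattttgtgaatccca
FOXL3, chr7:289920-290219, plus strand: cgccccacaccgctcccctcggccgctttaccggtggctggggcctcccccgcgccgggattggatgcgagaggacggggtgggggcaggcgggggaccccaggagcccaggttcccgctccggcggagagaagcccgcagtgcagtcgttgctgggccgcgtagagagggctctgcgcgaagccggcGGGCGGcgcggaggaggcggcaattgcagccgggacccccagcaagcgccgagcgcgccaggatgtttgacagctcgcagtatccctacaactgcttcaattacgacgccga
PRDM13, chr6:99606583-99606882, plus strand: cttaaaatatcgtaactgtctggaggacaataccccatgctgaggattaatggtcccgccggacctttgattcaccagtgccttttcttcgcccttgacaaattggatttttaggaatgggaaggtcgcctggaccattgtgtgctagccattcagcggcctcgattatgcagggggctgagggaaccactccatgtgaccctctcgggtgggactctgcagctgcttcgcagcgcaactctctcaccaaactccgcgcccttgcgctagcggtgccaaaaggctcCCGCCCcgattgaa
FGFR3, chr4:1793043-1793342, plus strand: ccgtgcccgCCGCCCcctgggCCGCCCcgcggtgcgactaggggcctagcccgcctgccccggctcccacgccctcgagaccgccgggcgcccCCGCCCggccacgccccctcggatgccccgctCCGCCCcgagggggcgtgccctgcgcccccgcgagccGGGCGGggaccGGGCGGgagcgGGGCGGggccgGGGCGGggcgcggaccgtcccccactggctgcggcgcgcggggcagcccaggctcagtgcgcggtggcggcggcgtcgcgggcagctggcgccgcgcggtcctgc
LOC124900173, chr4:61198837-61199136, plus strand: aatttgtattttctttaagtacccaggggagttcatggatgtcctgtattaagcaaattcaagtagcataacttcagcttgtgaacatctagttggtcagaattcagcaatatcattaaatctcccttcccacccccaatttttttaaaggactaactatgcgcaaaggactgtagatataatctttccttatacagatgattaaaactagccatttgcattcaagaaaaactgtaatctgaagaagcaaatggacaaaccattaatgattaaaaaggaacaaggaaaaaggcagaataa
GC content ran from 34.0% in LOC124900173 to 86.3% in FGFR3. PRDM13 (55.0%), VAT1L (60.0%) and HOXA6 (60.3%) lay below the median of 62.3% for all promoters in the table, as LOC124900173 did, and TP73, ADPRS, FOXL3 and FGFR3 above it. The SP and KLF box occurred 8 times in FGFR3, 3 times in TP73, 2 times in ADPRS and in HOXA6, 1 time in VAT1L, FOXL3 and PRDM13, and not in LOC124900173. All of the TP73, HOXA6, FOXL3, PRDM13, FGFR3 and LOC124900173 windows lay inside their regions, as did 291 bases of ADPRS and 221 bases of VAT1L.

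Strength is given by the authors' fold, the enrichment of a region's strongest summit over local background, which describes and ranks regions within 1 list. A fold from 1 list and a fold from another do not show a rise or a fall. The 1970 regions had a median DMSO fold of 4.35, from 1.91 to 13.6, with a 10th percentile of 3.31 and a 90th of 6.43. Their median width was 533 bp, from 290 to 4941 bp, and 1344 of them (68.2%) had 1 summit. The 2430 fusion regions of the same width limit that lay at gene ends and did overlap GLTSCR1 had a median fold of 4.44 and a median width of 678 bp. The 13838 regions without GLTSCR1 and away from gene ends, called distal below, had medians of 4.37 and 566 bp. Summit strength was thus alike in the 3 kinds, and the regions with GLTSCR1 were the wider ones.

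Near the limits of the rule, regions at the start of SMARCA2, which encodes a BAF ATPase, and of ZFTA lay 3 bp from a GLTSCR1 region and were taken, and the one at IPO9 lay 6 bp away. Regions at SOX13, CRY1 and IMPDH1 overlapped GLTSCR1 by 2, 9 and 10 bp and were left out. The widest that were taken lay at the homeobox gene RAX (4941 bp), at RNF223 (4805 bp) and at the homeobox gene CDX2 (4774 bp). A region of 5420 bp at AHRR was too wide. A GLTSCR1 region lay within 1 kb of 387 of the 1970 (19.6%, 17.9 to 21.5) and within 10 kb of 808 (41.0%, 38.8 to 43.2). Of the 1718 genes with such a region at an end, 494 (28.8%) had another GLTSCR1 region at an end and 626 (36.4%) had one in their span, beside 31.1% and 30.6% of all protein-coding genes. Neither was found at 972 (56.6%, 54.2 to 58.9), beside 62.7% of all protein-coding genes.

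Under WA-68 about 6 in 10 of these regions were called again at each time. The 12 h list had a fusion region over 1175 of them (59.6%, 57.4 to 61.8), the 24 h list over 1199 (60.9%, 58.7 to 63.03) and the 48 h list over 1192 (60.5%, 58.3 to 62.7). Over all DMSO fusion regions the shares were 72.3% at 12 h, 64.7% at 24 h and 68.8% at 48 h. The gap to the whole list was widest at 12 h, when the fusion list was the longest, with 28619 regions. All 3 later lists held 804 (40.8%, 38.6 to 43.0), beside 50.8% of all fusion regions, and none held 408 (20.7%, 18.9 to 22.6), beside 14.3%. The rest were called at some times: 137 at 12 and 24 h, 122 at 12 and 48 h, 137 at 24 and 48 h, 112 at 12 h alone, 121 at 24 h alone and 129 at 48 h alone. These 6 patterns were nearly equally frequent, between 112 and 137 regions each.

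Retention followed strength in DMSO. From the lowest to the highest decile of DMSO fold, formed over the whole fusion list, the share called at all 3 later times was 20%, 23.9%, 25.8%, 29.6%, 30.7%, 39.1%, 50%, 72.2%, 86.3% and 96.3%. It also followed shape: of the 1344 regions with 1 summit 25.4% (23.1 to 27.8) were called throughout, and of the 626 with more summits 74.0% (70.3 to 77.4). These shares by number of summits were not matched on fold. Regions called throughout had a median width of 967 bp and those called at no later time 380 bp. A wide region has more bases that a later region can overlap by 1 bp, and what part width had in these shares was not tested beyond the matched values below.

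**Figure D1:**
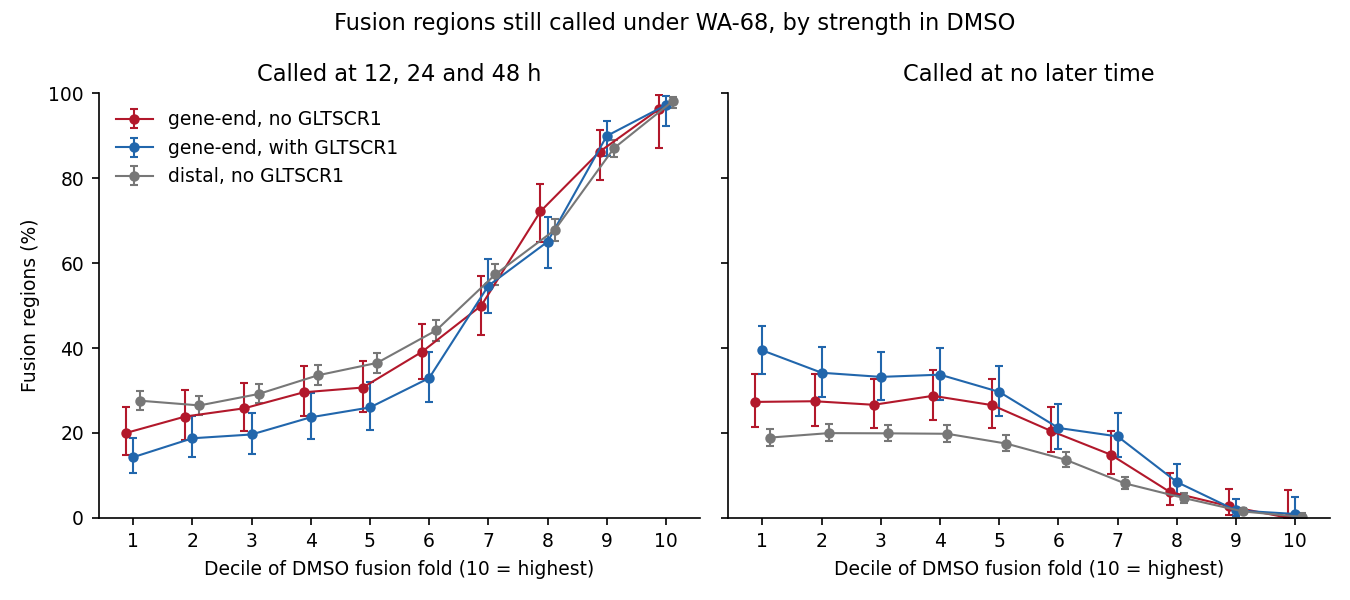
Percentage of DMSO fusion regions (y axis) called at 12, 24 and 48 h (left) or at no later time (right), by decile of DMSO fold (x axis, 10 the highest), for gene-end regions without GLTSCR1 (red), gene-end regions with GLTSCR1 (blue) and distal regions without GLTSCR1 (grey); bars are 95% intervals of counting error. The red points on the left climb from 20% to 96.3%, and the 3 kinds come together in the highest deciles.

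Compared at like fold, the regions without GLTSCR1 were called again somewhat more often than gene-end regions with GLTSCR1 at 12 and 24 h. Within deciles of DMSO fold the 12 h difference was 3.84 percentage points (1.06 to 6.62) and the 24 h difference 8.73 points (5.94 to 11.5). At 48 h it was 2.39 points (-0.392 to 5.18), an interval that held 0. For calls at all 3 times it was 3.81 points (1.22 to 6.40), but without the 24 h list it was 2.65 (-0.067 to 5.37), an interval that held 0, and without the 48 h list 6.45 (3.75 to 9.15). It was 9.56 points (7.32 to 11.8) with width matched in 3 classes as well. However, it turned to -1.35 when the overlap had to cover 50% of the shorter region and to -1.15 when summits had to lie within 250 bp. Both of those intervals held 0. Each of these settings was applied to the overlap with GLTSCR1 too. The sets compared thus changed, with 2206 and 3275 regions taken as without GLTSCR1. Against distal regions without GLTSCR1 the order was the other way round at 12 h, with a difference of -11.6 points (-13.8 to -9.44), and at 48 h, with -4.90 (-7.08 to -2.72). At 24 h it was 0.485 points (-1.70 to 2.67). For all 3 times it was -3.78 points (-5.88 to -1.69). Leaving out the 24 h list made it -8.13 points, and leaving out the 12 h list made it -2.09 (-4.27 to 0.0768), an interval that held 0. Gene-end regions of either kind were thus lost from the 12 h list more often than distal ones: at 12 h 57.7% of those with GLTSCR1, 59.6% of those without and 71.7% of the distal ones were called.

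The strongest regions that were called throughout were led by one that spans the neighbouring ends of CRYBG3, a crystallin-domain gene, and RIOX2, which encodes a ribosomal oxygenase (chr3:97939496-97944160). It was in the top decile in DMSO with a fold of 13.6, and its folds in the 12, 24 and 48 h lists were 13.5, 11.1 and 9.44. The region at the downstream end of C1orf159 (chr1:1078206-1080998) had folds of 13.2, 7.05, 9.66 and 12.0 in the same order of lists. At TP73, which encodes a p53-family transcription factor, the region over the start (chr1:3650954-3654192) had 11.7, 10.1, 9.94 and 11.2, and it also reached the end window of the neighbour WRAP73. Each of these regions was several kilobases wide with at least 4 summits.

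VAT1L, which encodes a relative of the vesicle amine transport protein, had folds of 10.6, 11.3, 10.3 and 9.90 at its start (chr16:77784287-77788534). RICTOR, the defining subunit of mTOR complex 2, had 10.5, 8.52, 12.5 and 7.68 at its downstream end. FOXD3, a forkhead factor of the neural crest, had 10.3, 10.5, 7.85 and 10.7 just downstream of its gene (chr1:63325143-63327531). The start of VAT1L and the downstream ends of RICTOR and FOXD3 were thus called in every fusion list.

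The small GTPase gene RASL11A (10.2 in DMSO) and LOC124900646 (10.4) carried theirs at downstream ends as well. Regions at KBTBD11 (12.6), LOC107987545 (12.3) and CDCA2 (11.3), which encodes a protein phosphatase targeting subunit of mitosis, could not be assigned to a start or a downstream end. A further region lay at the downstream end of NPIPB4 (11.5). NPIPB4 belongs to a family of near-identical copies on chromosome 16, so the place of its reads is uncertain. By q rather than by fold, the first was a narrow region at the start of CCDC200, with a −log10 q of 107 and a fold of 9.53. RASA4B, the fifth by q, has a near-identical copy, RASA4, and is uncertain in the same way.

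The strongest regions that were called at no later time were weaker and narrower. The first, with a DMSO fold of 6.96, lay between CDCA2 and KCTD9. The CDCA2 region called throughout stands at another place, so 1 gene held 1 region of each fate. Next came the shared ends of ADPRS, which encodes an ADP-ribose hydrolase, and the ciliary gene TEKT2 (6.72, chr1:36088651-36089029), and the sodium-calcium exchanger gene SLC8A2 (6.71). TKT, the transketolase of the pentose phosphate pathway, had 6.51 at its start, and the semaphorin gene SEMA4C 6.09 at its downstream end. RAB37, which encodes a small GTPase, had 6.04. ACO1, the cytosolic aconitase that also binds iron-responsive RNA elements, had 5.97, and the AMPA receptor subunit gene GRIA4 5.90. None of the 8 was wider than 872 bp, each had 1 summit, and all stood in decile 8 or 9 of the DMSO list. No GLTSCR1 region overlapped any of the 8 at 12, 24, 48 or 96 h.

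GLTSCR1 was seldom called at these places later. The 12 h GLTSCR1 list had a region over 175 of the 1970 (8.88%, 7.66 to 10.2) and the 24 h list over 126 (6.40%, 5.36 to 7.57). The 48 h list had 138 (7.01%, 5.92 to 8.22) and the 96 h list again 175. Over all 15929 fusion regions without GLTSCR1 in DMSO, the shares were 6.64%, 7.88%, 7.07% and 8.71% at 12, 24, 48 and 96 h. That background lay below the interval of the gene-end regions at 12 h, above it at 24 h and inside it at 48 h and 96 h. No later GLTSCR1 list held 1621 of the regions (82.3%, 80.5 to 83.9), beside a background of 83.2%, and all 4 held 35 (1.78%, 1.24 to 2.46), beside 1.81%. Regions with a DMSO GLTSCR1 region within 1 kb were overlapped at 96 h in 11.9% of cases (8.84 to 15.5, n = 387), and the 1583 others in 8.15% (6.85 to 9.61).

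The later GLTSCR1 calls stood more often where the fusion was called throughout. Of the 804 regions called at 12, 24 and 48 h, 10.3% (8.31 to 12.6) overlapped GLTSCR1 at 12 h and 14.8% (12.4 to 17.5) at 96 h. Of the 408 called at no later time, 9.07% (6.47 to 12.3) did at 12 h and 4.41% (2.64 to 6.88) at 96 h. The shares lay close together at 12 h and apart at 96 h. Regions called throughout were also the stronger and wider ones, and the part of width in this difference was not tested.

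The regions with GLTSCR1 in all 4 later lists were led by CRYBG3 and RIOX2, with GLTSCR1 folds of 10.4, 5.77, 5.27 and 5.36 at 12, 24, 48 and 96 h, and by VAT1L, with 4.91, 4.89, 3.93 and 5.28. For VAT1L the nearest DMSO GLTSCR1 region was far outside 10 kb. CPZ, which encodes a carboxypeptidase, had 8.92, 9.57, 14.1 and 6.34, and DUSP8, a MAP kinase phosphatase gene, 4.28, 3.65, 12.1 and 5.62. ROBO3 (an axon guidance receptor), NFATC2 (a calcineurin-regulated transcription factor) and PCDH1 (a protocadherin) followed, with lowest GLTSCR1 folds of 4.72, 5.11 and 5.69. At PCDH1 the fusion was called in 2 of its 3 later lists, and at the other regions named here in all 3.

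The strand of a gene was known for 15843 of the 20037 genes, and it told starts from downstream ends for most regions. Of the 1970, 1066 lay at a start, 282 at a downstream end, 91 at a start and a downstream end together, and 531 could not be resolved. Regions at downstream ends were called throughout in 53.5% of cases (47.5 to 59.5) and those at starts in 35.1% (32.2 to 38.0). At 12 h the shares were 70.9% and 54.9%, at 24 h 73.0% and 55.4%, and at 48 h 72.7% and 55.6%. Downstream regions were a little stronger, with a median fold of 4.48 against 4.30, and wider, with 641.5 against 493 bp. Within deciles of fold the difference in calls at all 3 times was 13.8 points (8.13 to 19.5), and with width matched too it was 8.54 points (3.37 to 13.7). With summits within 250 bp, a setting that chose 3275 regions, it was 1.01 points (-1.83 to 3.85). GLTSCR1 was called at like shares of downstream ends and starts at 12 h (9.22% and 8.72%), and at larger shares of downstream ends at 24 h (11.3% and 5.63%), 48 h (11.3% and 5.53%) and 96 h (14.5%, 10.6 to 19.2, and 7.22%, 5.74 to 8.95). Regions with and without GLTSCR1 were also set side by side at each kind of end. At starts the difference between those without and those with GLTSCR1 in calls at all 3 times was 2.43 points (-0.884 to 5.74) at like fold. At downstream ends the 157 regions with GLTSCR1 were called throughout in 66.9% of cases (58.9 to 74.2), more often than the 53.5% of the 282 without it, and at like fold the difference was -1.89 points (-11.95 to 8.18). Both intervals at like fold held 0.

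Many of the regions lay near the ends of chromosomes, a pattern that was looked for after the data had been seen. Within 2 Mb of the outermost protein-coding gene end of a chromosome arm (long arms alone for the acrocentric chromosomes) there were 400 of the 1970 (20.3%, 18.5 to 22.1). The same stretches held 7.62% of all 40074 gene-end windows, 9.92% of gene-end fusion regions with GLTSCR1 (8.76 to 11.2) and 13.6% of distal regions without it (13.03 to 14.2). Within 5 Mb the shares were 29.0%, 13.6%, 16.7% and 22.1%. Among the strongest regions named above (those called throughout and those with GLTSCR1 in all later lists), those at C1orf159, KBTBD11, LOC107987545, LOC124900646 and DUSP8 lay within 2 Mb. Of the 400, 233 (58.2%, 53.3 to 63.1) were called throughout, beside 36.4% (34.0 to 38.8) of the other 1570, with medians of fold of 4.70 and 4.29. At like fold the difference was 15.4 points (10.6 to 20.1). It was -0.903 points (-3.15 to 1.35) among the 3275 regions chosen when summits had to lie within 250 bp. Away from these stretches the difference between downstream ends and starts was still 14.01 points (7.57 to 20.5). By chromosome, the regions were densest on chromosome 21, with 19.2 per 100 protein-coding genes, followed by 8 (15.9), 7 (14.5) and 9 (14.1). They were sparsest on X (4.13), and Y had none. By the share of genes with a region, chromosome 8 came first (13.7%), followed by 21 (13.4%) and 7 (12.4%). Chromosomes 21, 8, 7 and 9 held 46, 114, 136 and 110 of the 1970 regions. Of the 2430 gene-end fusion regions with GLTSCR1 they held 42, 110, 150 and 91. X held 35 regions without GLTSCR1 and 50 with it, and Y none of either kind. The pattern by chromosome was thus not shown to be particular to regions without GLTSCR1.

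**Figure D2:**
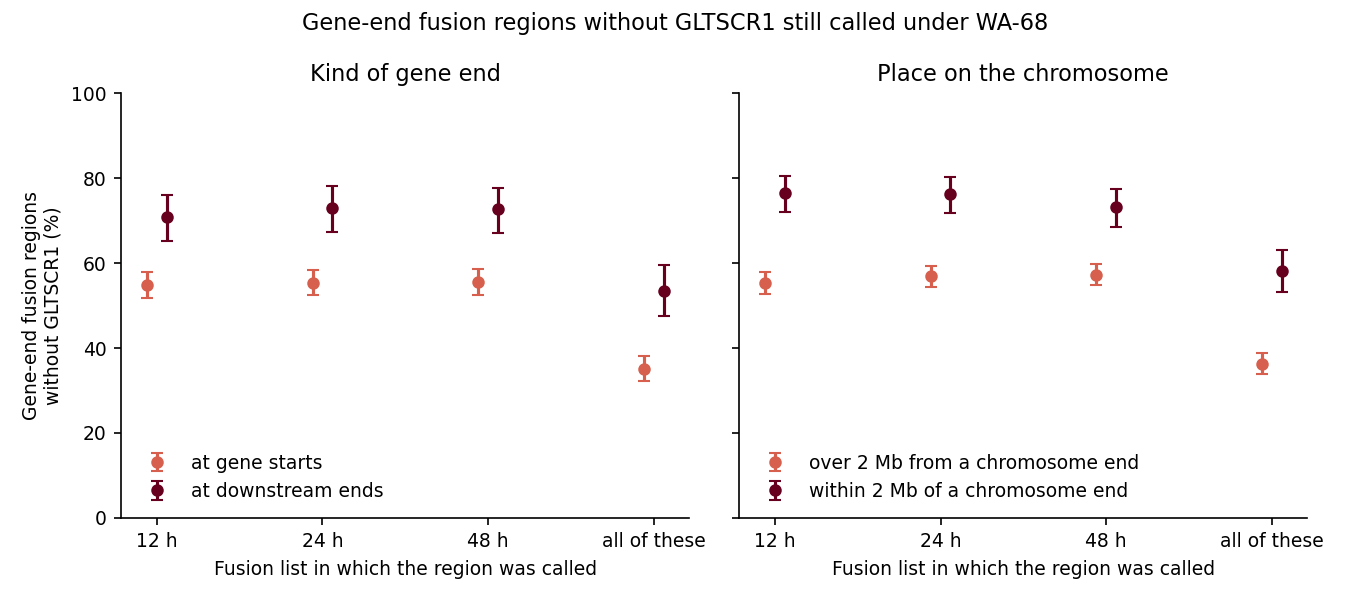
Percentage of gene-end fusion regions without GLTSCR1 (y axis) called in the 12, 24 and 48 h fusion lists and in all of these (x axis), split by kind of gene end (left; 1066 at starts and 282 at downstream ends) and by place on the chromosome (right; 1570 away from and 400 within 2 Mb of a chromosome end). Points are shares and bars 95% intervals of counting error; the dark points, downstream ends and chromosome ends, lie above the light ones in each list.

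About gene starts the summits were spread broadly. For the 1186 region and start pairs with a known strand the strongest summit lay a median of 207.5 bp inside the gene (25th percentile -305 bp, 75th 677 bp). It was inside the gene in 61.0% of pairs (58.2 to 63.8) and within 250 bp of the start in 24.7%. For 1759 pairs with GLTSCR1 the median was 129 bp, 58.6% (56.2 to 60.9) were inside and 30.6% within 250 bp. The rule limits where a region can be, so both distributions fall away beyond 1 kb.

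**Figure D3:**
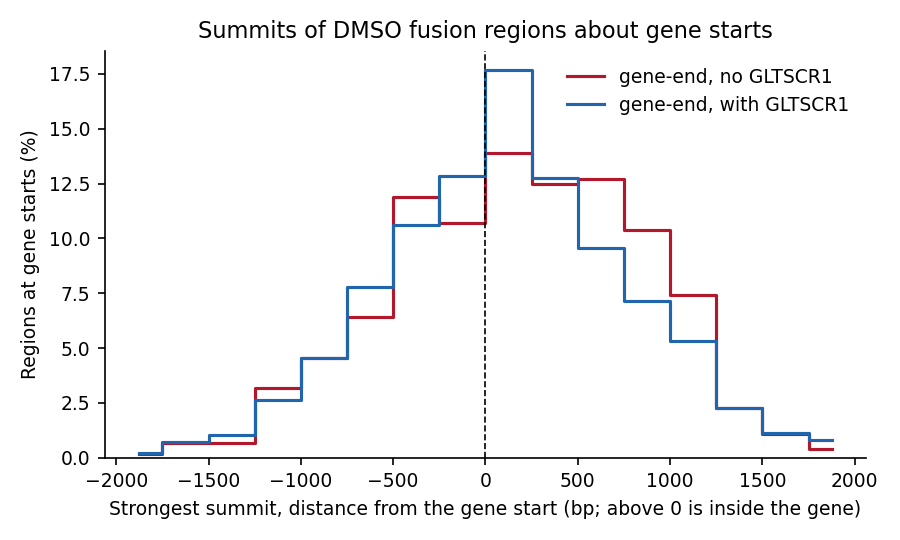
Percentage of regions at gene starts (y axis) by distance of the strongest DMSO summit from the start in bins of 250 bp (x axis, values above 0 inside the gene), for gene-end regions without GLTSCR1 (red, 1186 pairs) and with GLTSCR1 (blue, 1759 pairs). The blue line has its peak just inside the start, and the red line is flatter over the first 1 kb of the gene.

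Promoters under these regions held more CG than promoters at large, though single windows varied widely, as the printed sequences show. The regions overlapped 620 promoter windows of 553 genes in a table of 22199 windows. Their median GC content was 68.3%, beside 62.3% for all promoters, 67.5% for the 1440 windows under gene-end fusion regions with GLTSCR1, 65.7% for the 2977 under GLTSCR1 without the fusion and 60.7% for the 16089 under neither. The median number of CG dinucleotides was 28, against 21 in all promoters and 16 under neither protein. Fewer than 10 CG were found in 34 of the 620 (5.48%), against 29.9% of all promoters. In base composition the promoters under regions without GLTSCR1 and those under gene-end fusion regions with GLTSCR1 lay close together. The 620 were not cleared of windows that a separate GLTSCR1 region also overlapped. Windows under both kinds of fusion region were counted among the 620 and left out of the 1440.

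Of 10 motifs searched on both strands, the box GGGCGG (reverse complement CCGCCC) differed most, in percentage points, between promoters with a region and all promoters. As a ratio of shares, rarer motifs such as TAATTA differed more. It occurred in 492 of 620 (79.4%, 75.9 to 82.5) and in 56.3% of all promoters. Under gene-end fusion regions with GLTSCR1 it stood at 73.2% (70.8 to 75.5) and under GLTSCR1 without the fusion at 71.0% (69.4 to 72.7). It consists of G and C alone, and its share was not corrected for base composition. The ETS motif CCGGAAG, which reads CTTCCGG on the other strand, went differently. It occurred in 10.5% of the 620 (8.19 to 13.2) and in 12.8% of all promoters. Under gene-end fusion regions with GLTSCR1 it stood at 14.7% (12.9 to 16.6) and under GLTSCR1 without the fusion at 21.8% (20.3 to 23.3). Within the 620 it split by fate, at 12 of 233 (5.15%, 2.69 to 8.82) under regions called throughout and 31 of 159 (19.5%, 13.6 to 26.5) under regions called at no later time, while GGGCGG stood at 76.8% and 79.2%. The ADPRS window printed above, under a region called at no later time, holds CCGGAAG. The 233 windows came from 212 genes and the 159 from 145. All regions called throughout had a median DMSO fold of 5.05 and a median width of 967 bp. For all regions called at no later time the medians were 4.06 and 380 bp. The split of the ETS motif was not matched on fold or width, and it was singled out of 10 motifs. CCAAT, or ATTGG on the other strand, is read by NFY and occurred in 35.2% of the 620 and 34.7% of all promoters, and CAGCTG, an E-box and its own reverse complement, in 17.6% and 18.02%. For TATAAA, or TTTATA, the shares were 6.45% and 9.47%, for TGANTCA, the AP-1 motif, 3.87% and 6.15%, and for the TEAD motif CATTCC, or GGAATG, 9.35% and 12.2%. The cyclic AMP element TGACGTCA stood at 3.23% and 2.26%, the palindromic NRF1 motif at 1.61% and 1.5%, and the homeodomain core TAATTA at 1.61% and 3.39%. A match describes the letters of a window and is not a measured binding site.

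**Figure D4:**
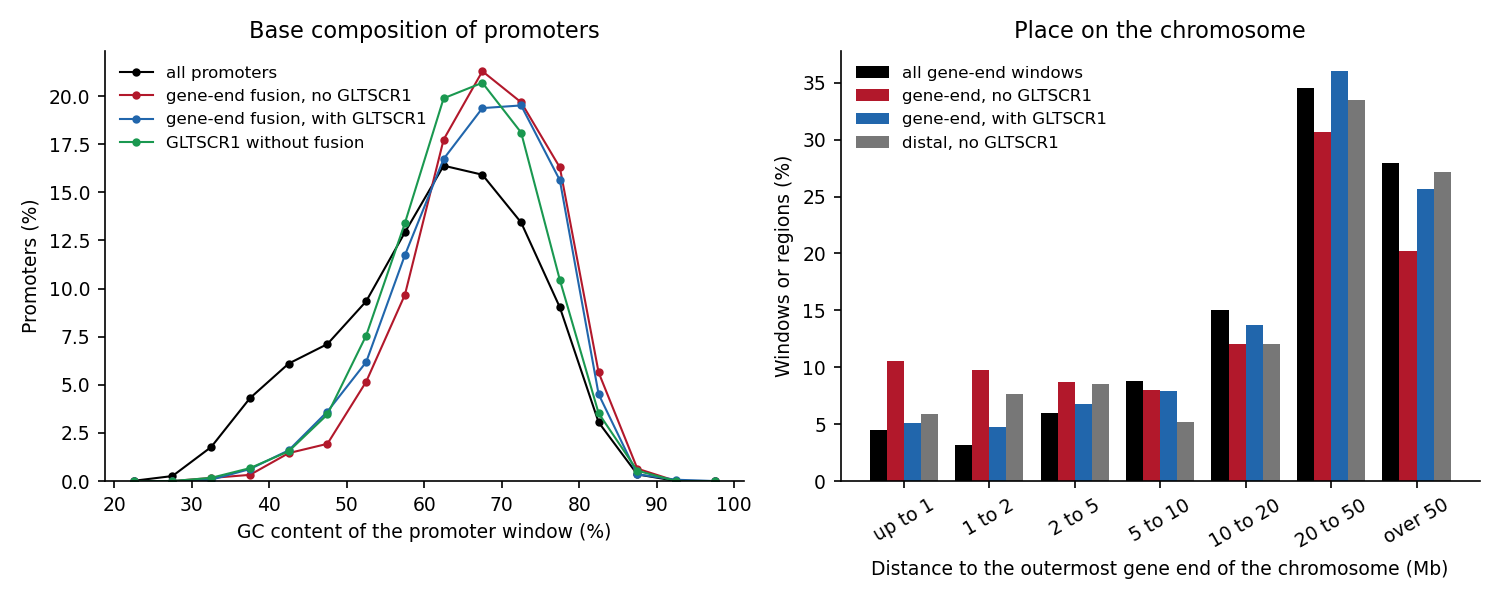
Left, percentage of promoter windows (y axis) by GC content in bins of 5% (x axis) for all promoters and for those overlapped by gene-end fusion regions without GLTSCR1 (red), with GLTSCR1 (blue) and by GLTSCR1 without the fusion (green). Right, percentage of gene-end windows or fusion regions (y axis) by distance to the outermost gene end of the chromosome (x axis, Mb); the red bars stand above the others within 1 Mb (10.6%, against 4.49% of windows) and from 1 to 2 Mb (9.75%, against 3.13%).

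HOX and other homeobox genes had the highest shares of the gene lists examined. At least 1 region lay at an end of 1718 of the 20037 protein-coding genes (8.57%). Of the 39 HOX genes, the body-pattern genes that lie in 4 clusters, 18 had one (46.2%, 30.1 to 62.8). So did 51 of 152 other homeobox genes (33.6%, 26.1 to 41.7), 24 of 100 genes of the bHLH, SNAI, ZEB, ZIC and PRDM families (24.0%, 16.0 to 33.6) and 21 of 88 forkhead, SOX, GATA and T-box genes (23.9%, 15.4 to 34.1). Over these 4 lists together it was 114 of 379 genes (30.1%, 25.5 to 35.0). GLTSCR1 was not rare at such genes: 137 of the 379 had a fusion region with GLTSCR1 at an end, and 254 (67.0%) had a fusion region of any kind, beside backgrounds of 11.7% and 19.3%. The lists were chosen with earlier results on these libraries known, and neighbours in a cluster can share a region.

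At these developmental genes the regions were mostly called throughout. Of their 179 regions 112 (62.6%) were in all 3 later fusion lists and 10 (5.59%) in none, against 46.1% and 18.7% for all 1970 regions weighted to the same deciles of fold. The forkhead, SOX, GATA and T-box list stood at 29 of 36 regions (80.6%, against 45.0%), the HOX list at 18 of 26 (69.2%, against 49.8%), the bHLH, SNAI, ZEB, ZIC and PRDM list at 26 of 43 (60.5%, against 45.3%) and the other homeobox list at 39 of 74 (52.7%, against 45.9%). At least 1 later GLTSCR1 list held 23 of the 179 (12.8%), beside 17.7% (16.1 to 19.5) of all 1970. For calls throughout, each of the 4 lists thus lay above the value at like fold, and no test of that was made. Values at like fold for gene lists, here and below, were not matched on width, and the part of width was not tested.

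Within HOX, 11 of the 26 regions lay in the HOXA cluster and 12 in HOXD, with 2 in HOXC and 1 in HOXB. Of the HOXA regions 10 were called throughout, of the HOXD regions 8, and of the 3 others none. HOXA6 had the strongest (chr7:27145602-27149814), with fusion folds of 10.1 in DMSO and then 7.89, 10.4 and 17.6 at 12, 24 and 48 h. HOXA5 followed with 9.42, 6.94, 10.8 and 9.89, and a region shared by HOXD10 and HOXD9 (chr2:176120566-176124058) had 8.69, 7.34, 9.77 and 8.78. Neither HOXA6 nor the shared HOXD region overlapped a later GLTSCR1 region, and HOXA5 did at 48 h. The regions called at no later time were at HOXC12, with a DMSO fold of 4.25, and at HOXB1, with 3.70.

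Other factor genes gave similar pictures. LHX1, a LIM homeobox gene, had a fusion fold of 9.12 in DMSO and was called at 12 and 48 h but not at 24 h. The caudal homeobox gene CDX2 had 8.52, 5.78, 10.6 and 12.4, in the order DMSO, 12, 24 and 48 h. The 24 and 48 h folds came from later regions that also overlapped the 4774 bp region at CDX2. FOXL3 had 8.12, 8.14, 9.53 and 10.1, and TBR1, a T-box gene of cortical neurons, 7.69, 7.81, 5.91 and 4.35. PRDM13, a gene of spinal cord and retinal neurons, carried 2 regions at its start, with 10.1, 9.39, 15.7 and 5.80 for the stronger one, and PRDM12, a gene of pain-sensing neurons, had 9.26, 5.46, 9.68 and 11.02. In the later lists these regions, LHX1 at 24 h apart, were all present.

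Lists of genes for signalling between cells had shares from 14.9% to 33.3%. In the WNT list 25 of 85 genes (29.4%, 20.02 to 40.3) had a region, led by the ligand gene WNT7B with folds of 9.22, 4.43, 5.45 and 5.13. Of the 36 hedgehog and Notch genes 12 had one (33.3%, 18.6 to 51.0), with DLK1 at 8.52 in DMSO, the glycosyltransferase gene LFNG at 6.69 and the ligand gene DLL1 at 5.97. Among 79 axon guidance genes 22 had one (27.8%, 18.4 to 39.1), led by ROBO3 (7.66), the plexin gene PLXNC1 (6.72) and the ephrin gene EFNA4 (6.64), and 17 of their 26 regions (65.4%, against 46.7% at like fold) were called throughout. The FGF list stood at 9 of 42 genes (21.4%, 10.3 to 36.8). In it the ligand gene FGF22 had 7.51, 9.29, 8.26 and 4.80, and the receptor gene FGFR3 had 2 regions at its start with DMSO folds of 6.91 and 6.13. These 2 lay under the same later regions, with folds of 7.76, 8.42 and 8.59. BMP and TGF-beta genes were lowest of these at 11 of 74 (14.9%, 7.66 to 25.04, an interval that held the background of 8.57%), with BMP3, GDF15 and the BMP antagonist gene NOG.

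Lists of differentiated functions had shares from 0.510% to 20.5%. Collagens stood at 20.5% (9 of 44, 9.80 to 35.3) and ion channels at 15.6% (26 of 167, 10.4 to 21.97), where HCN2, a pacemaker channel gene, had 2 regions with DMSO folds of 9.53 and 7.29. Matrix proteoglycans and proteases stood at 15.3% (8.83 to 24.0), neurotransmitter receptors at 13.5% (8.06 to 20.7) and solute carriers at 9.74% (6.99 to 13.1). The serotonin receptor gene HTR2C, on the X chromosome, had 9.85, 5.94, 8.08 and 6.60, and the NMDA receptor subunit gene GRIN1 8.72, 6.43, 8.74 and 7.52. Cell cycle genes stood at 14.4% (8.12 to 23.03), with the CDK inhibitor gene CDKN1C first (7.31), and immediate early genes at 18.1% (9.98 to 28.9), with FOSL1 (7.47) and EGR2 (6.43). Cadherins and protocadherins stood at 5.71% (2.13 to 12.02) and keratins at 4.70% (1.91 to 9.44). Their intervals, and those of neurotransmitter receptors, solute carriers and cell cycle genes, held the background of 8.57%. ZNF zinc finger genes (4.52%, 2.89 to 6.70) and olfactory receptors (0.510%, 0.0618 to 1.83, 2 of 392) lay below it. Keratin-associated and olfactory receptor genes lie in families of close copies, so their regions are uncertain.

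Housekeeping genes had few of these regions and kept few of them. Of 462 genes for ribosomal proteins, the respiratory chain, and the proteasome, splicing and translation, 27 (5.84%, 3.89 to 8.39) had one. A GLTSCR1 region lay at an end of 246 of the 462, beside 31.1% of all protein-coding genes. A fusion region of any kind lay at an end of 100 (21.6%), beside 19.3%, and one with GLTSCR1 at 78, beside 11.7%. Of the 28 regions without GLTSCR1 at these genes 5 (17.9%) were called throughout and 17 (60.7%) at no later time. The values at like fold, not matched on width, were 34.2% and 23.3%. Among the 12 at ribosomal protein genes 9 were called at no later time, led by the region that RPL17 shares with its neighbour C18orf32 (5.60 in DMSO). RPL38 held 1 of each fate: the region at its start had 4.93, 3.89, 6.16 and 3.45, and that at its downstream end had 4.88 in DMSO and no later call. The 72 replication-dependent histone genes had none (0%, 0 to 4.99), while 54 of them had a fusion region with GLTSCR1, beside the background of 11.7%.

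Genes of the BAF and Polycomb complexes had shares close to the background of 8.57%. Of the 32 genes for subunits of BAF, PBAF and GBAF, 2 had a region without GLTSCR1 (6.25%, 0.766 to 20.8), SMARCD2 (5.04) and SMARCA2 (3.32). Neither was called throughout. Of the 42 Polycomb genes 4 had one (9.52%, 2.66 to 22.6), with PCGF3 (4.82), ASXL3 (4.35) and EPOP (4.02) the strongest. None of these 4 regions was called throughout, beside 30.8% at like fold, and so few regions give no more than a count. In a list of 25 genes that have been tied to the fusion in this sarcoma 22 (88.0%) had a fusion region at an end, beside 19.3% of all protein-coding genes. A region without GLTSCR1 lay at 4 of the 25 (16.0%, 4.54 to 36.1), FGFR3 and IGF2 (4.43) among them. The intervals of these 3 lists all held the background of 8.57%.

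**Figure D5:**
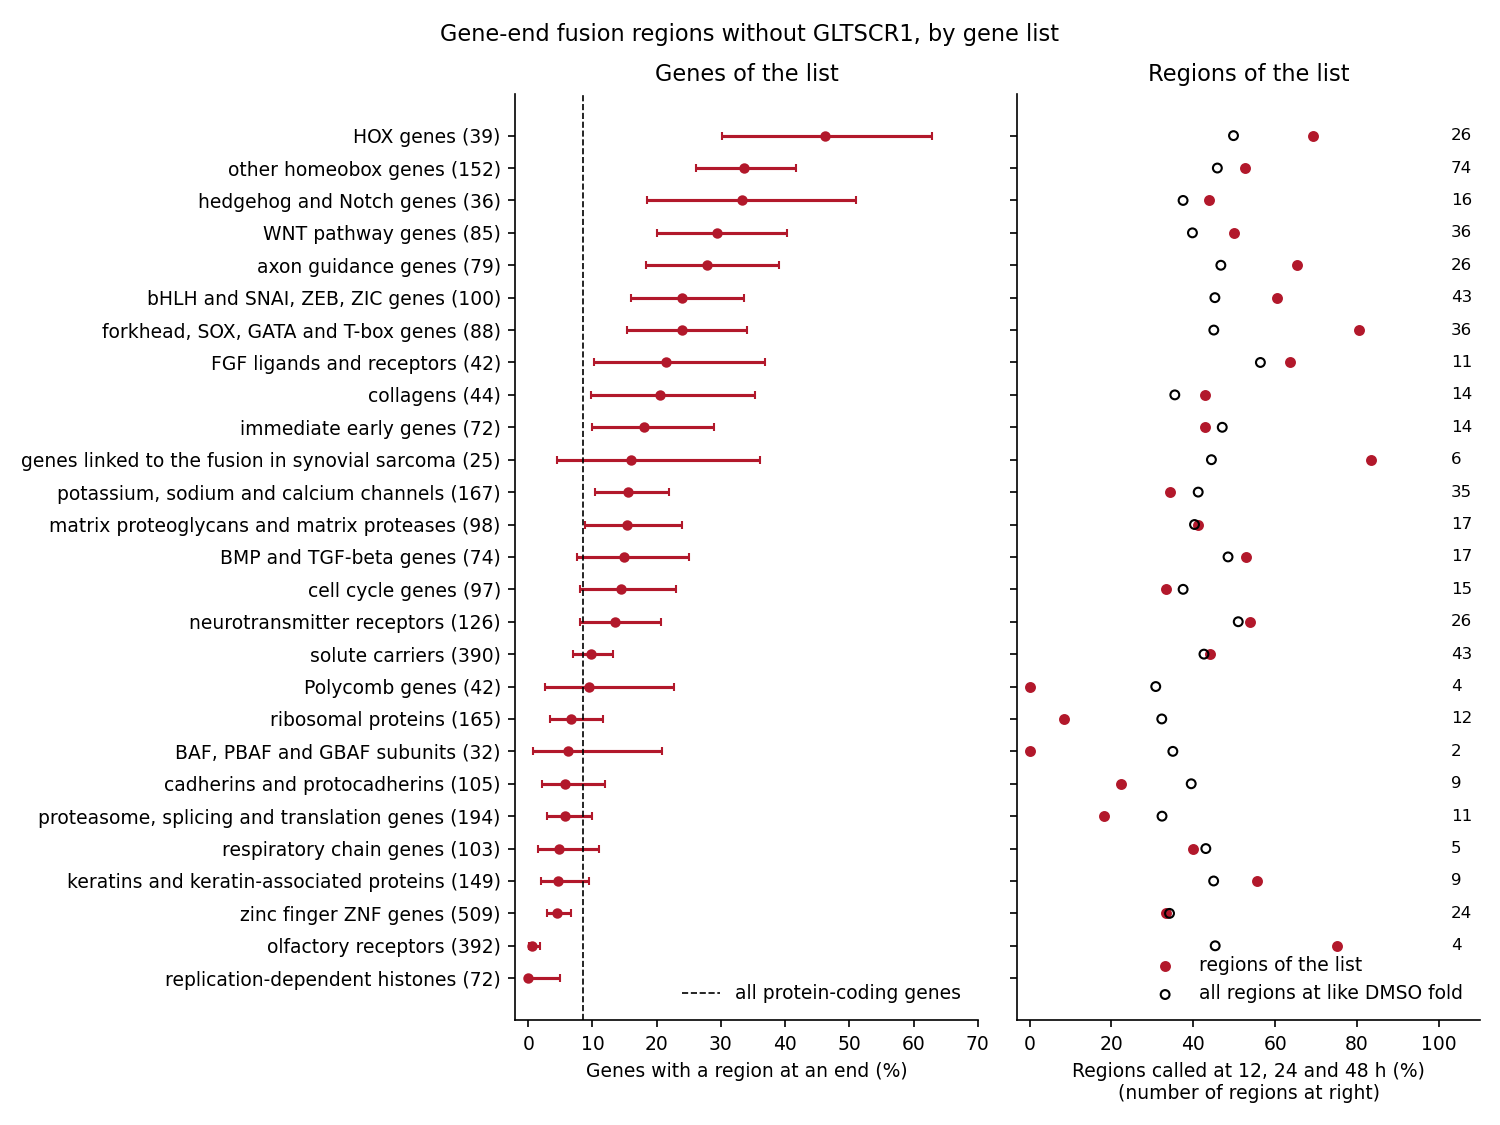
Left, percentage of the genes of each list (x axis; number of genes in brackets) with a gene-end fusion region without GLTSCR1, with 95% intervals of counting error, and the 8.57% of all protein-coding genes as a dashed line. Right, percentage of each list's regions called at 12, 24 and 48 h (x axis, filled; number of regions at the right) beside all 1970 regions weighted to the same deciles of DMSO fold (open); HOX genes are at the top with 46.2% and histone genes at the bottom with 0%.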

How the data were processed

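Peaks of 4 fusion and 5 GLTSCR1 libraries were deposited, each in its own list, with coordinates on GRCh38 per the submitters' processing notes. Tools named there are MACS2, BWA, SAMtools and Picard, cutadapt with Trim Galore, FastQC, bcl2fastq, and deepTools. Their versions, settings and any use of inputs as controls were not given in the sources used here. Per the labels' protocols, chromatin was sonicated and sequenced in pairs. The authors gave each peak a fold (a linear ratio of its summit over background), −log10 p and −log10 q values, a display score and a summit offset in bp, which are deposited as their caller wrote them. The lowest deposited −log10 q was 3 in every list. Read depth is unknown, and an uncalled place had a signal under the caller's limit in that library, which is not absence of the protein.

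Rows with the same coordinates were joined into 1 region with the values of its strongest summit. A region was called again when a region of a later list overlapped it by at least 1 bp. Its fold in a later list is the highest among the overlapping later regions, wherever their summits lay. Kinds of regions were compared inside each of 10 deciles of DMSO fold, and the differences were averaged with the regions without GLTSCR1 as weights. Gene spans, gene strand and promoter windows came from RefSeq (GRCh38.p14), and 15843 of 20037 genes had a window. No exon, intron or UTR annotation was used. Named are the 12 strongest regions by DMSO fold that were called at all later times, the 8 strongest called at none, the 8 strongest with GLTSCR1 at all 4 later times, and up to 3 regions of each of 27 gene lists (some such regions are not reported here); others are said to be chosen after their values were seen, as were those at the limits of the rule, the first and the fifth by q, and HOXC12 and HOXB1. The regions, lists and comparisons were chosen with earlier results of these data known. The alternatives were a larger overlap, summit distance, a stricter q, equal list lengths, other window sizes, a distance from GLTSCR1 and no width limit; matching on width, leaving out each later list, and the comparisons of gene starts and chromosome ends were added after seeing the data. Scripts in Python 3.11.15 (numpy 2.4.6, pandas 2.3.3, scipy 1.17.1) were tested on simulated data.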

Additional observations from a re-analysis of the deposited data

How the results depend on the processing

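Of 147 values recomputed for 16 results under 12 alternative settings, 105 stayed within counting error, 39 moved and 3 changed sign. Requiring 50% of the shorter region, for the overlap with GLTSCR1 in DMSO too, chose 2206 regions. It gave 50.2%, 51.1% and 50.4% called at 12, 24 and 48 h, 29.8% at all of these and 28.7% at none. The GLTSCR1 shares were 4.99% at 24 h and 5.58% at 48 h. The difference from gene-end regions with GLTSCR1 was then -1.35 points.

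Requiring the strongest summits within 250 bp, for the overlap with GLTSCR1 in DMSO too, chose 3275 regions. It gave 27.6%, 27.1% and 28.3% at the 3 times, 5.56% at all and 45.6% at none, and GLTSCR1 shares of 10.2%, 8.15% and 8.98% at 12, 24 and 48 h. The differences were -1.15 points from gene-end regions with GLTSCR1, 1.01 for downstream ends less starts and -0.903 for chromosome ends less the rest; 15.8% lay within 2 Mb of a chromosome end, and 50.7% of the developmental factor genes had a region. A region with several summits fails this setting when another of its summits is the strongest.

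With a −log10 q of at least 5, GLTSCR1 shares were 7.36% at 12 h and 7.56% at 96 h. Lists of equal length gave 54.8% at 12 h, 38.3% at all times and a GLTSCR1 share of 7.21% at 12 h and at 96 h. Windows of 500 bp gave a GLTSCR1 share of 10.3% at 12 h and 25.3% of developmental factor genes; windows of 3 kb gave 62.3% called at 12 h, a GLTSCR1 share of 7.44% at 12 h and 42.5% of those genes. Without regions within 1 kb of GLTSCR1 the genes were at 25.1%.

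Leaving out the 12, 24 or 48 h list gave 47.8%, 47.0% and 47.8% called in both other lists and 26.4%, 26.9% and 27.3% in neither. The difference from gene-end regions with GLTSCR1 was 6.45 points without the 48 h list, 9.56 with width matched and 2.65 (-0.067 to 5.37) without the 24 h list. That from distal regions was -8.13 without the 24 h list and -2.09 (-4.27 to 0.0768) without the 12 h list; the intervals of 2.65 and -2.09 held 0. The cause of these changes was not tested. The median GC content of promoters stayed within its spread in all alternatives run. With 1 library per group no variation between cultures can be given, and neighbouring regions are not independent. No paired analysis was possible because each group held 1 library.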
